A study of Mus musculus with 14 samples.

Results

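Chemokine receptors that steer monocytes between bone marrow, blood, lymphoid organs and inflamed tissue were followed here as mRNA in mouse bone marrow monocytes. The 6 genes, Ccr1, Ccr2, Ccr7, Cx3cr1, Cxcr3 and Cxcr4, were taken by symbol from the 55487 gene identifiers of the count table, and each matched 1 identifier. All 6 passed the filter on low counts that left 14754 genes for testing. All are protein-coding, with positions from GENCODE M21 on GRCm38 (mm10). Ccr1 (ENSMUSG00000025804.5) lies at chr9:123962124-123968692 on the minus strand, Ccr2 (ENSMUSG00000049103.14) at chr9:124101950-124113557 on the plus strand and Cx3cr1 (ENSMUSG00000052336.7) at chr9:119901616-120069879 on the minus strand. Ccr7 (ENSMUSG00000037944.8) lies at chr11:99144196-99155077, Cxcr3 (ENSMUSG00000050232.6) at chrX:101731535-101734269 and Cxcr4 (ENSMUSG00000045382.6) at chr1:128588199-128592293, all on the minus strand.

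Monocytes from the leg marrow of mice, with a labelled purity of 90 to 95% by flow cytometry, were held in culture for 3 h with mouse IL-4 at 20 ng/mL or in medium alone. The groups were AhR-deficient monocytes in IL-4 (n = 3 libraries), AhR-deficient monocytes in medium (n = 3), wild-type monocytes in IL-4 (n = 4) and wild-type monocytes in medium (n = 4). AhR is the aryl hydrocarbon receptor, a ligand-activated transcription factor. The sources used here do not give the mutant allele, the strain, the age or the number of animals behind a library. P-values therefore measure the spread between these libraries, which may be technical. The questions the design poses are how 3 h of IL-4 changed each receptor, and how that differed between the genotypes.

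Chemokine receptors are G protein-coupled receptors of the Gi class. They turn a gradient of a secreted chemokine into directed movement. Classical monocytes carry Ccr2, which they need to leave the marrow, whereas Cxcr4 and its ligand Cxcl12 hold them there. Cx3cr1, the receptor of the membrane-tethered chemokine Cx3cl1, is highest on the non-classical monocytes that patrol vessel walls. IL-4 is a type 2 cytokine that acts through STAT6.

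Total counts ran from 33432502 to 42885079 per library, and the 4 groups overlapped in depth. Ahr itself had more counts, not fewer, in the libraries with the AhR-deficient label. Those 6 had 36.9 to 45.2 CPM (counts scaled to library size by the TMM method) in IL-4 and 15.7 to 26.1 CPM in medium. The 8 wild-type libraries had 23.7 to 26.9 CPM in IL-4 and 11.4 to 14.4 CPM in medium. Ahr was called higher in AhR-deficient libraries in IL-4 (0.71 log2, adjusted p = 0.0270 by edgeR's quasi-likelihood test) and in medium (0.69 log2, adjusted p = 0.0144). In both genotypes it was also called higher in IL-4. Counts per gene cannot show the loss of a single exon. The label is therefore not checked by this gene, and genotype is taken from the labels throughout. Xist had 987 to 1284 CPM in the 6 AhR-deficient libraries and at most 2.12 CPM in the 8 wild-type libraries. Conversely, 3 genes of chromosome Y (Ddx3y, Kdm5d, Uty) were counted in each wild-type library and in no AhR-deficient library, so genotype and this sex-linked difference cannot be told apart. Libraries in IL-4 and medium with the same number in their titles were taken as a pair, which the labels do not state. Same-numbered libraries deviated together least in number 7 (r = 0.170 across genes, against 0.486 to 0.706 in the other pairs), so that pair is the least certain. Wild-type library 7 in medium stood apart from its group in Ccr2 and Ccr7. Its partner in IL-4 also differed from it in Dock2, chosen after its values were seen, at 88.9 CPM in IL-4 and 305 CPM in medium. Wild-type number 1 was low in Dock2 in both conditions, at 86.2 CPM in IL-4 and 81.0 CPM in medium. Numbers 1 and 2 had the highest summed neutrophil markers, 960 to 1175 CPM over 10 genes, against 370 to 868 CPM in the other libraries. The 8 monocyte markers summed to 11352 to 14101 CPM in IL-4 and 18648 to 23050 CPM in medium.

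The promoters of the receptors are shown because the genotypes differ in a transcription factor with a short, known DNA core. Of the 6 genes, 5 had an entry in the RefSeq promoter table of build GRCm38.p6, and the windows of Cxcr4 and Ccr1 are the 2 that hold no annotated exon bases. Each line gives the 250 bases before the RefSeq start on the gene's own strand, in lower case, with the AhR core GCGTG or its reverse complement CACGC in capitals. The first is chr1:128592300-128592549 (minus strand) and the second chr9:123968693-123968942 (minus strand).
Cxcr4: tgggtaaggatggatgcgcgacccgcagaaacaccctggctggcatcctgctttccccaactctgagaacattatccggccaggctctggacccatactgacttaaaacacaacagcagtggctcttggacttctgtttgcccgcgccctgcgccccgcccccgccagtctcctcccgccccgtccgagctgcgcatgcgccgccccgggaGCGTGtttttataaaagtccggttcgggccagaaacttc
Ccr1: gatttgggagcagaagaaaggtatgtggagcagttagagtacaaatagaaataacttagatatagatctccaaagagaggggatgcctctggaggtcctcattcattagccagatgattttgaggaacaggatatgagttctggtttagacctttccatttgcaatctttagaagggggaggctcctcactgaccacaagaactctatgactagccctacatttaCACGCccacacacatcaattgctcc
The core lay 39 bases before the start of Cxcr4 and 25 bases before that of Ccr1. Cxcr3 held 1 match, 103 bases before its start, and Ccr2 and Cx3cr1 held none. On either strand, 28.3% of the 32536 promoters in the table held this core in a window of the same length. The STAT motif, TTC and GAA with 3 bases (7.04% of promoters) or 4 bases (5.89%) between them, and the AP-1 motif TGANTCA (6.73%) had no match on either strand in any of the 5 windows. A match is a run of letters, not a site shown to be bound.

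Cxcr4, Ccr2 and Cx3cr1 were the most abundant of the 6 receptors in each group, in an order that differed between groups, and Ccr7 and Cxcr3 the least. Levels between genes are given as CPM per kb of exon (GENCODE M21 on GRCm38). Cxcr4 led in AhR-deficient monocytes, with 249 ± 14.4 CPM per kb in IL-4 and 310 ± 35.8 CPM per kb in medium (SD, n = 3 each). In AhR-deficient monocytes in IL-4 it was followed by Ccr2 at 75.1 ± 7.28 and Cx3cr1 at 56.9 ± 4.43 CPM per kb, and in medium by Cx3cr1 at 180 ± 13.03 and Ccr2 at 56.3 ± 12.6 CPM per kb. The order of these genes thus differed with IL-4, and in neither condition did the libraries of neighbouring genes overlap. In wild-type monocytes in IL-4, Ccr2 (253 ± 15.7 CPM per kb) and Cxcr4 (242 ± 4.34 CPM per kb) overlapped at the head of the order (SD, n = 4 each). In wild-type monocytes in medium, Cxcr4 led at 337 ± 11.9 CPM per kb, and Ccr2 (189 ± 81.2) and Cx3cr1 (165 ± 35.7) overlapped behind it. Ccr1 came next in every group, between 17.3 and 32.5 CPM per kb on average. Ccr7 averaged 0.643 and 3.85 CPM per kb in AhR-deficient monocytes in IL-4 and medium, and 0.123 and 1.53 CPM per kb in wild-type monocytes in IL-4 and medium. Cxcr3 averaged 0.010 to 0.257 CPM per kb, and its libraries overlapped those of Ccr7 only in wild-type monocytes in IL-4.

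The summed level of the 6 receptors averaged 399 ± 15.1 CPM per kb in AhR-deficient monocytes in IL-4 and 571 ± 42.8 in medium (SD, n = 3 each). In wild-type monocytes it averaged 568 ± 20.9 in IL-4 and 726 ± 59.3 in medium (SD, n = 4 each). Ccr2 made up 18.8% of that sum in AhR-deficient monocytes in IL-4, against 44.6% in wild-type monocytes in IL-4. In medium its share was 9.84% in AhR-deficient and 25.5% in wild-type monocytes. The share of Cx3cr1 was 14.2% in IL-4 and 31.7% in medium in AhR-deficient monocytes, and 8.73% in IL-4 and 22.9% in medium in wild-type monocytes.

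**Figure D1:**
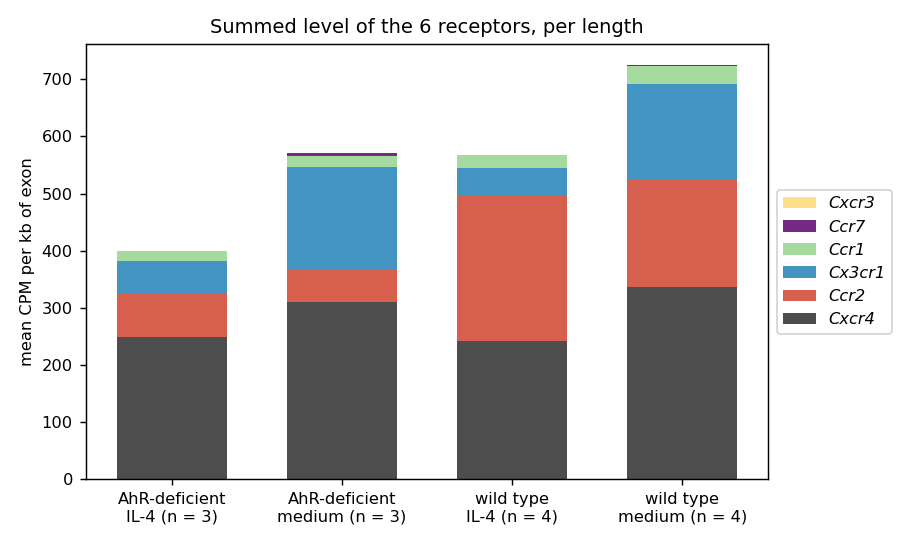
Stacked bars of the mean level of each receptor in CPM per kb of exon (vertical axis, from 0) in the 4 groups (horizontal axis, 3 or 4 libraries each). The Ccr2 segment is shorter in both AhR-deficient bars than in the wild-type bar of the same condition, and the Cx3cr1 segment is shorter in both IL-4 bars than in the medium bar of the same genotype.

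In each genotype 4 of the 6 receptors were lower in IL-4: Cx3cr1, Cxcr4, Ccr7 and Cxcr3. For Cxcr3 the calls are not independent of the filter on low counts. It passed that filter only through wild-type monocytes in medium, the group where it was highest. Cx3cr1 fell to 256 ± 20.0 CPM in AhR-deficient monocytes in IL-4, against 812 ± 58.7 CPM in medium (SD, n = 3 each), and Cxcr4 fell by a smaller factor. No member passed in the higher direction (15.4% of all genes in AhR-deficient and 19.4% in wild-type monocytes), and Ccr2 and Ccr1 passed in neither genotype. Of all genes tested, 14.2% were called lower in the AhR-deficient IL-4 comparison and 16.5% in the wild-type comparison. The median log2 difference of the 6 was -0.99 in AhR-deficient and -0.87 in wild-type monocytes, beside -0.01 and 0.01 over all genes tested. In AhR-deficient monocytes the IL-4 and medium libraries of 5 receptors did not overlap, a property of 43.7% of all genes, and in wild type those of 4 did not, beside 33.2% of all genes. In bulk RNA, fewer cells of a kind and less RNA per cell cannot be told apart.

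Ccr2 binds Ccl2 and Ccl7 and draws classical monocytes out of the marrow. It had 477, 564 and 482 CPM in AhR-deficient monocytes in IL-4 (numbers 4, 5 and 6), against 302, 471 and 370 CPM in medium. Wild-type monocytes had 1658, 1684, 1642 and 1871 CPM in IL-4 (numbers 1, 2, 3 and 7), against 1729, 1424, 1478 and 478 CPM in medium. Ccr2 was higher in IL-4 in 3 of 3 AhR-deficient pairs, whose groups just missed each other, and in 3 of 4 wild-type pairs, whose groups overlapped. The lowest wild-type value was that of number 7 in medium. The log2 difference was 0.42 ± 0.32 (SE; 95% interval -0.27 to 1.10, adjusted p = 0.379 by edgeR's quasi-likelihood test) in AhR-deficient and 0.42 ± 0.28 (-0.17 to 1.02, adjusted p = 0.264) in wild-type monocytes. Without wild-type library 7 in medium the wild-type response was 0.15 (adjusted p = 0.411), and it ran from 0.15 to 0.60 when each library was left out. Without the same library the AhR-deficient response was 0.41 with an adjusted p of 0.0326. That library enters this contrast through the shared estimate of the spread and not through a group mean.

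Ccr1 is a receptor of Ccl3, Ccl5 and Ccl9 that acts in recruitment to inflamed tissue. It had 52.0, 57.5 and 37.2 CPM in AhR-deficient monocytes in IL-4, against 49.3, 67.4 and 51.6 CPM in medium. Wild-type values were 57.7, 54.5, 57.0 and 89.0 CPM in IL-4, against 120.9, 103.4, 68.2 and 75.7 CPM in medium. The groups overlapped in both genotypes, and number 7 was the wild-type pair in which Ccr1 was higher in IL-4. The log2 difference was -0.20 ± 0.24 (-0.71 to 0.32, adjusted p = 0.601) in AhR-deficient and -0.51 ± 0.21 (-0.95 to -0.07, adjusted p = 0.0674) in wild-type monocytes. With the replicate number as a block the wild-type value was -0.51 ± 0.18 and passed, at an adjusted p of 0.0428. It also passed without wild-type library 7 in IL-4 (-0.71, adjusted p = 0.0140) and without wild-type library 3 in medium (-0.64, adjusted p = 0.0287). With numbers 1 and 2 left out it was 0.01 (adjusted p = 0.978).

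Cx3cr1 is the receptor of Cx3cl1 and supports the survival and patrolling of non-classical monocytes. It had 252, 239 and 278 CPM in AhR-deficient monocytes in IL-4, against 837, 745 and 855 CPM in medium. Its wild-type levels were 186, 249, 263 and 195 CPM in IL-4, against 536, 700, 901 and 833 CPM in medium. Every IL-4 library lay under every medium library of either genotype. The fall was -1.66 ± 0.17 log2 (a 3.17-fold fall, adjusted p = 5.5e-06) in AhR-deficient and -1.73 ± 0.15 log2 (3.33-fold, adjusted p = 6.4e-07) in wild-type monocytes. Cx3cr1 shares 78 exon bases with the antisense gene Gm33858 (8980 counts in all over the 14 libraries), and the strand setting of the counting is not given in the sources used here.

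Cxcr4, which responds to Cxcl12 and keeps monocytes in the marrow, fell by less. It had 429, 444 and 480 CPM in AhR-deficient monocytes in IL-4, against 489, 578 and 615 CPM in medium. Wild-type monocytes had 430, 448, 434 and 440 CPM in IL-4, against 601, 594, 604 and 642 CPM in medium. The conditions did not overlap in either genotype, and the 4 wild-type libraries in IL-4 lay between 430 and 448 CPM. The difference was -0.31 ± 0.07 log2 (a 1.24-fold fall, adjusted p = 0.0045) in AhR-deficient and -0.48 ± 0.06 log2 (1.39-fold, adjusted p = 3.8e-05) in wild-type monocytes.

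Ccr7 binds Ccl19 and Ccl21 and takes cells to lymph nodes. It had 1.32, 1.07 and 1.42 CPM in AhR-deficient monocytes in IL-4, against 9.44, 6.37 and 7.07 CPM in medium. Wild-type values were 0.28, 0.34, 0.13 and 0.23 CPM in IL-4, against 0.69, 1.71, 2.28 and 7.42 CPM in medium. Ccr7 was lower in IL-4 in 7 of 7 pairs, and wild-type library 7 in medium was the high one of its group. The fall was -2.58 ± 0.59 log2 (6.0-fold, adjusted p = 0.0043) in AhR-deficient and -3.59 ± 0.62 log2 (12.1-fold, adjusted p = 0.0004) in wild-type monocytes. Without wild-type library 7 in medium the wild-type fall was -2.65 log2 (adjusted p = 0.000142), and with numbers 1 and 2 left out it was -4.75 log2 (adjusted p = 0.00042). Ccr7 also marks migratory dendritic cells. The 6 conventional dendritic cell markers summed to 154 to 160 CPM in IL-4 and 90.8 to 105 CPM in medium in AhR-deficient monocytes, and to 114 to 141 CPM in IL-4 and 74.1 to 114 CPM in medium in wild-type monocytes. Of these 6, Flt3 and Cd209a were called higher in IL-4 in AhR-deficient monocytes and Flt3 in wild-type monocytes, and all 6 had counts in each group. With the replicate block, Dpp4 was called lower in wild-type monocytes (-0.29 log2, adjusted p = 0.0167). Zbtb46 had -0.68 log2 in AhR-deficient (adjusted p = 0.161) and -0.53 log2 in wild-type monocytes (adjusted p = 0.200). The part of such cells in the Ccr7 difference was not tested.

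Cxcr3, the receptor of the interferon-induced Cxcl9, Cxcl10 and Cxcl11 and best known on T and NK cells, was close to the limit of detection. It had 1, 0 and 1 counts in AhR-deficient monocytes in IL-4, against 5, 12 and 6 counts in medium. Wild-type monocytes had 7, 5, 9 and 8 counts in IL-4, against 18, 20, 14 and 13 counts in medium. This last group alone brought Cxcr3 past the filter on low counts, so its fall in wild type was favoured by the filter. The conditions did not overlap in either genotype. Scaled for depth, the level of Cxcr3 in medium was 11.8 times that in IL-4 in AhR-deficient monocytes (95% interval 2.93 to 104, counting error only, 2 counts in IL-4 and 23 in medium) and 2.39 times in wild-type monocytes (1.52 to 3.84, 29 counts in IL-4 and 65 in medium). The edgeR quasi-likelihood test gave an adjusted p of 0.0014 in AhR-deficient and 0.0146 in wild-type monocytes. With numbers 1 and 2 left out, the wild-type difference was -0.62 log2 (adjusted p = 0.428). The 6 T cell markers summed to 0.508 to 1.23 CPM in IL-4 and 1.03 to 1.98 CPM in medium in AhR-deficient monocytes, and to 0.479 to 3.39 CPM in IL-4 and 0.579 to 4.87 CPM in medium in wild-type monocytes. No T cell marker was called in any comparison. The 6 NK cell markers summed to 3.96 to 5.28 CPM in IL-4 and 19.8 to 23.0 CPM in medium in AhR-deficient monocytes, and to 2.76 to 3.95 CPM in IL-4 and 13.5 to 28.7 CPM in medium in wild-type monocytes. Of the NK cell markers, Klrd1 fell in both genotypes (-2.32 and -2.93 log2), while the defining marker Ncr1 was at 0 counts in 3 groups and at 1 count in wild-type monocytes in medium. Only 2 of the 6 passed the filter on low counts, and the other of these, Nkg7, was not called for IL-4 in either genotype. The part of such cells in the Cxcr3 difference was not tested.

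**Figure D2:**
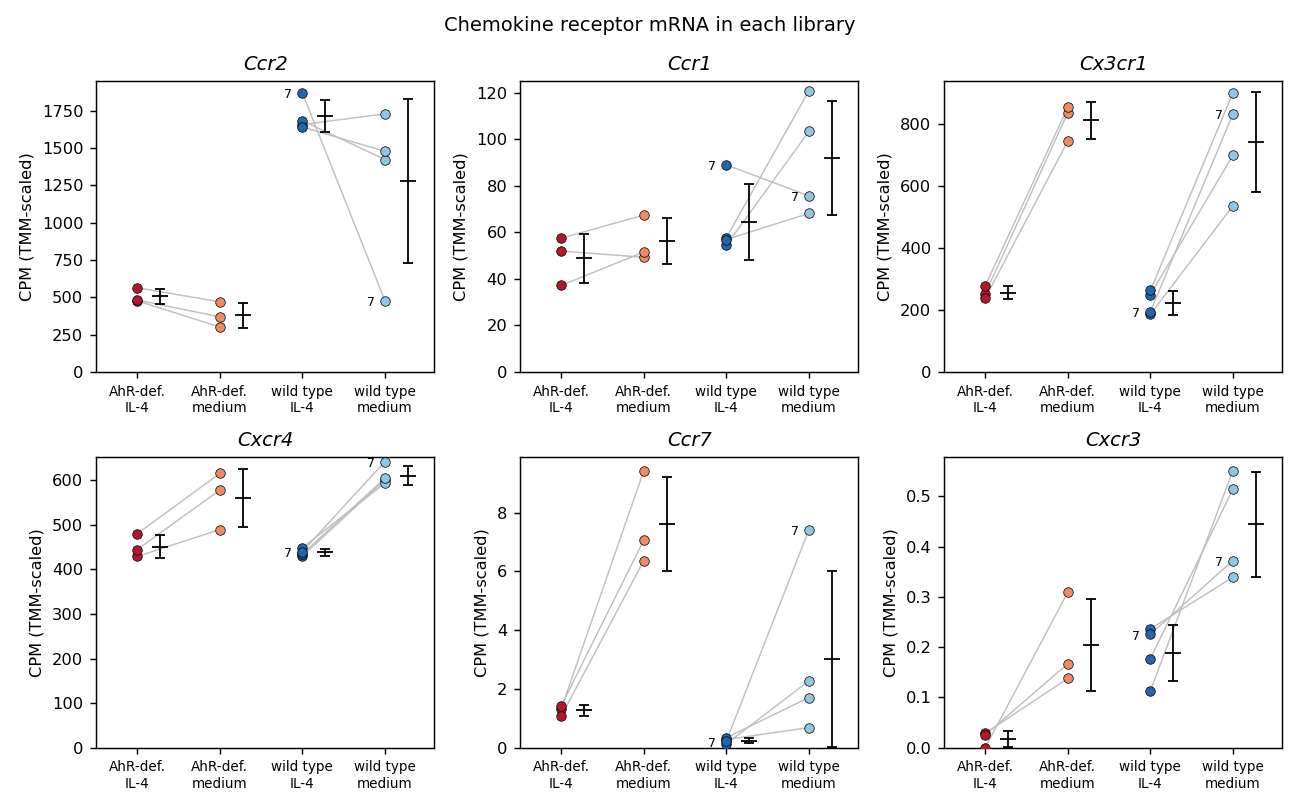
Each panel plots 1 receptor, with the level in CPM on the vertical axis from 0 and the 4 groups on the horizontal axis. Points are libraries, grey lines join the libraries of a number, 7 marks number 7, and bars give the mean ± SD. The IL-4 points of Cx3cr1, Cxcr4, Ccr7 and Cxcr3 lie under the medium points in all 7 pairs, and the Ccr2 points of AhR-deficient monocytes lie at 302 to 564 CPM.

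Ccr2 was the receptor called between the genotypes in both conditions. It was lower in AhR-deficient monocytes in both conditions, at 508 ± 49.2 CPM in IL-4 (SD, n = 3) against 1714 ± 106 CPM in wild-type monocytes (n = 4). In medium it averaged 381 ± 85.0 CPM in AhR-deficient and 1277 ± 549 CPM in wild-type monocytes. Cxcr3 was also called lower in IL-4, and no receptor was called higher (0.956% of all genes in IL-4 and 4.16% in medium). The calls were 2 of 6 members lower in IL-4 and 1 of 6 in medium, beside 0.664% and 3.95% of all genes tested. The groups did not overlap for 3 of 6 members in each condition, beside 18.2% of all genes in IL-4 and 20.0% in medium. Cxcr3 is among the 3 in both conditions, and in medium its place there was favoured by the filter on low counts. The median log2 difference of the 6 was -0.18 in IL-4 and -0.42 in medium, beside -0.01 and 0.01 over all genes. The label AhR-deficient was not checked by Ahr, and it coincides with the sex-linked difference given above.

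The genotype difference of Ccr2 was -1.75 ± 0.31 log2 in IL-4 (3.37-fold lower, adjusted p = 0.0204 by edgeR's quasi-likelihood test) and -1.75 ± 0.31 log2 in medium (3.36-fold, adjusted p = 0.0098). The highest AhR-deficient library in IL-4, at 564 CPM, lay under the lowest wild-type one, at 1642 CPM. In medium the highest AhR-deficient library, at 471 CPM, lay just under wild-type library 7, at 478 CPM, and the other wild-type libraries began at 1424 CPM. Without that library the difference in medium was -2.02 log2 (adjusted p = 6.3e-06). The call in IL-4 was lost when any of 5 libraries was left out, with values of -1.84 to -1.71 log2 and adjusted p of 0.113, 0.0817 and 0.0512 without AhR-deficient library 4, 5 or 6 in IL-4, and 0.0629 and 0.0609 without wild-type library 1 or 2 in IL-4. The call in medium was lost without AhR-deficient library 4 in medium (-1.60, adjusted p = 0.0720) and when the 2 medium groups were fitted alone (-1.76, adjusted p = 0.0716). With numbers 1 and 2 left out, the differences were -1.78 in IL-4 and -1.37 in medium (adjusted p = 0.153 and 0.151).

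Marker sums of granulocytes are set beside Ccr2 because numbers 1 and 2 were high in them. The 10 neutrophil markers summed to 370 to 648 CPM in AhR-deficient and 526 to 1031 CPM in wild-type monocytes in IL-4, and to 419 to 767 CPM in AhR-deficient and 474 to 1175 CPM in wild-type monocytes in medium. The 7 eosinophil and basophil markers summed to 27.9 to 98.2 CPM in AhR-deficient and 55.2 to 241 CPM in wild-type monocytes in IL-4, and to 30.3 to 112 CPM in AhR-deficient and 68.8 to 220 CPM in wild-type monocytes in medium. These ranges overlapped, none of the 17 genes was called between genotypes, and none was at 0 in any group. Most nevertheless stood lower in AhR-deficient monocytes. The median log2 genotype difference of the neutrophil markers was -0.92 in IL-4 and -0.66 in medium. That of the eosinophil and basophil markers was -1.28 in IL-4 and -1.18 in medium, beside -0.01 and 0.01 over all genes. Wild-type library 3, whose neutrophil markers summed to 526 CPM in IL-4 and 574 CPM in medium, had Ccr2 at 1642 and 1478 CPM. AhR-deficient library 5, whose neutrophil markers summed to 648 and 767 CPM, had Ccr2 at 564 and 471 CPM. In wild-type number 7 both were higher in IL-4: the neutrophil markers summed to 868 CPM in IL-4 and 474 CPM, the lowest wild-type sum, in medium, and Ccr2 had 1871 and 478 CPM. The part of these cells in the Ccr2 difference was not tested. Of the classical monocyte genes, Ly6c2 did not pass (0.38 ± 0.12 log2 in IL-4 and 0.41 ± 0.12 in medium), whereas Hp was higher in AhR-deficient monocytes in medium (0.75 ± 0.20, adjusted p = 0.0392). None of the 8 classical monocyte genes tested was called lower in either condition.

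Cxcr3 was lower in AhR-deficient monocytes in IL-4 (adjusted p = 0.0313), with 2 counts over 3 libraries against 29 counts over 4 wild-type libraries. Scaled for depth, the wild-type level was 10.5 times the AhR-deficient level (95% interval 2.67 to 91.2, counting error only). In medium it was 2.13 times (1.30 to 3.59, 23 counts in AhR-deficient and 65 in wild-type monocytes), with an adjusted p of 0.0934. Cxcr3 passed the filter on low counts only through wild-type monocytes in medium, so this difference in medium was favoured by the filter. Groups of the 2 genotypes did not overlap in either condition, and Cxcr3 lies on chromosome X. The call in IL-4 was lost without AhR-deficient library 4, 5 or 6 in IL-4 (adjusted p = 0.113, 0.127 and 0.0565) and without wild-type library 1, 2 or 7 in IL-4 (0.0738, 0.0534 and 0.0535). It was also lost with numbers 1 and 2 (adjusted p = 0.153) or number 7 (0.0528) left out.

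Ccr7 stood higher in AhR-deficient monocytes without passing. The difference was 2.35 ± 0.68 log2 in IL-4 (adjusted p = 0.0915), where every AhR-deficient library exceeded every wild-type library, and 1.34 ± 0.51 log2 in medium (adjusted p = 0.112), where wild-type library 7 lay among the AhR-deficient ones. Without wild-type library 7 in medium both passed, at 2.35 (adjusted p = 0.0116) and 2.28 (adjusted p = 0.0041), and the IL-4 value also passed without wild-type library 1 in medium (adjusted p = 0.0310). With numbers 1 and 2 left out the medium value was 0.65 (adjusted p = 0.469). Of the 6 conventional dendritic cell markers, 1 was called higher and 0 lower in AhR-deficient monocytes in each condition. Of all genes, 0.956% in IL-4 and 4.16% in medium were called higher. The marker median was 0.50 log2 in IL-4 and 0.17 log2 in medium, beside -0.01 and 0.01 over all genes. The marker sums given above overlapped between genotypes in medium and not in IL-4. The part of such cells in this Ccr7 difference was not tested. Ccr1 was lower without passing, at -0.40 ± 0.22 log2 in IL-4 (adjusted p = 0.368) and -0.71 ± 0.23 log2 in medium (adjusted p = 0.0653). The IL-4 value was -0.20 without wild-type library 7 in IL-4 and -0.24 without AhR-deficient library 6 in IL-4, and the medium value was -0.37 with numbers 1 and 2 left out (adjusted p = 0.463). Its medium groups did not overlap, and it passed in medium without wild-type library 3 in medium (-0.84, adjusted p = 0.0324) or wild-type library 7 in IL-4 (-0.71, adjusted p = 0.0475). Cx3cr1 and Cxcr4 did not pass in either condition. The 95% intervals of the genotype difference were -0.14 to 0.54 log2 in IL-4 and -0.21 to 0.47 log2 in medium for Cx3cr1, and -0.10 to 0.19 and -0.27 to 0.02 log2 for Cxcr4.

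**Figure D3:**
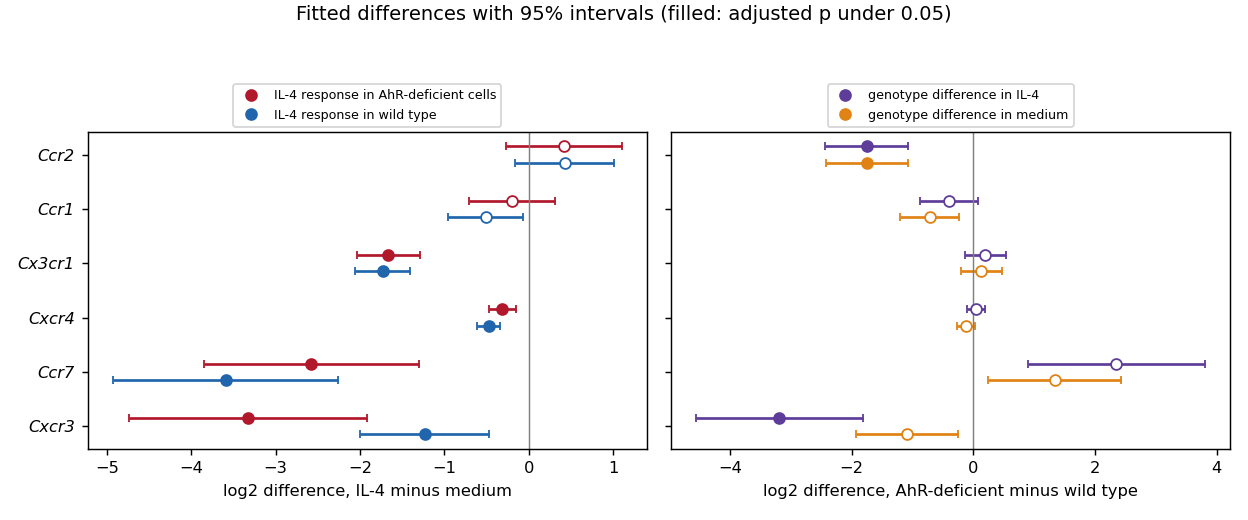
Fitted log2 differences of the 6 receptors (horizontal axis) with 95% intervals, for IL-4 minus medium (left) and AhR-deficient minus wild type (right). Filled points passed an adjusted p of 0.05. Ccr2 is the receptor with filled points in both genotype comparisons, and Cx3cr1, Cxcr4, Ccr7 and Cxcr3 have filled points for IL-4 in both genotypes.

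No receptor was called for a different IL-4 response between the genotypes. The interaction, the response in AhR-deficient minus that in wild-type monocytes, gave 0.00% of all genes called by edgeR's quasi-likelihood test. At an unadjusted p under 0.05 it gave 3.78% of all genes and 1 of 6 members, Cxcr3 (-2.09 ± 0.77 log2, unadjusted p = 0.0170). With the replicate block Cxcr3 had -2.08 ± 0.95 log2 (unadjusted p = 0.0534), and Cxcr4 was the 1 member under 0.05 instead, at 0.17 ± 0.06 log2 (95% interval 0.02 to 0.31, unadjusted p = 0.0265, adjusted p = 0.543). No member was called by DESeq2 or limma-voom either, and DESeq2 called 3 genes of the whole table, Rnf24, Gclm and Rmi2. The intervals without the block show what the design leaves possible: -0.41 to 0.55 log2 for Cx3cr1, -0.04 to 0.37 for Cxcr4, -0.36 to 0.99 for Ccr1, -0.91 to 0.89 for Ccr2 and -0.83 to 2.85 for Ccr7. For Cxcr3 it was -3.75 to -0.44 log2, negative throughout, and with the block -4.19 to 0.04. That gene had 2 counts in all in AhR-deficient monocytes in IL-4. The intervals of Ccr7 and Cxcr3 are wide, and those of Cx3cr1 and Cxcr4 are narrow. The interaction of Ccr7 was 1.01 log2, and 0.07 log2 without wild-type library 7 in medium. The 2 IL-4 responses share no library, while each genotype comparison shares its libraries with an IL-4 response.

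Of 17 other chemokine receptors and atypical receptors, 8 passed the filter, and 1 was higher, 2 lower and 5 not called in each genotype in IL-4. Cxcr2, the neutrophil receptor for Cxcl1 and Cxcl2, had 10.6, 12.1 and 9.95 CPM in AhR-deficient monocytes in IL-4, against 1.16, 1.96 and 0.696 CPM in medium. Wild-type levels were 13.5, 12.2, 9.67 and 11.8 CPM in IL-4, against 2.14, 2.65, 1.62 and 1.15 CPM in medium. No library in medium came near any in IL-4. The rise of Cxcr2 was 3.08 ± 0.30 log2 (adjusted p = 3.5e-06) in AhR-deficient and 2.64 ± 0.25 log2 (adjusted p = 1.8e-06) in wild-type monocytes. None of the 10 neutrophil markers was called in either IL-4 comparison (with the replicate block, Elane was called higher in wild-type monocytes, 0.40 log2, adjusted p = 0.0275), and their sums overlapped between IL-4 and medium in both genotypes.

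Ccrl2, a non-signalling receptor that presents chemerin, fell by 2.58 ± 0.36 log2 in AhR-deficient and by 3.21 ± 0.32 log2 in wild-type monocytes. Ccr6, the receptor of Ccl20, was at 0.410 CPM or less on average in each group and was called lower in both genotypes (-2.26 ± 0.67 and -1.60 ± 0.46 log2). At such levels it is likely to have passed the filter on low counts through medium, where it was higher. Its 2 calls are therefore not independent of that filter. Ccr3, Ccr4, Ccr8, Ccr9 and Cxcr6 were not called, and no other receptor was called between genotypes. Ccr1 and Ccr2 lie with Ccr9, Cxcr6, Xcr1, Ccr1l1 and Ccr3 within 435119 bp of chromosome 9. Of these 7 genes, Ccr1, Ccr2, Ccr3, Ccr9 and Cxcr6 were not called for IL-4 in either genotype, and Xcr1 and Ccr1l1 did not pass the filter.

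The chemokines that these receptors bind moved in both directions in the same libraries. Of 17 such genes, 12 passed the filter. In AhR-deficient monocytes in IL-4, 3 were higher, 4 lower and 5 not called, and in wild-type monocytes 2 were higher, 4 lower and 6 not called. The Ccr2 ligands Ccl2 and Ccl7 rose. Ccl2 averaged 7.52 ± 0.505 CPM in AhR-deficient monocytes in IL-4 and 1.87 ± 0.151 CPM in medium (2.01 ± 0.29 log2), and Ccl7 had 179 counts in IL-4 and 7 in medium over 3 libraries each. In wild-type monocytes Ccl2 rose by 2.09 ± 0.26 log2, and Ccl7 had 197 counts in IL-4 and 4 in medium over 4 libraries each. Ccl7 passed the filter on low counts only through libraries in IL-4, where it was high, so its rise was favoured by the filter. Ccl12, also among the 17 genes, did not pass the filter and had 0 counts in wild-type monocytes in medium. The ligand of Cx3cr1 fell together with its receptor: Cx3cl1 averaged 0.881 ± 0.133 CPM in IL-4 and 4.97 ± 1.49 CPM in medium in AhR-deficient monocytes (-2.49 ± 0.52 log2), and its fall in wild type was -3.25 ± 0.53 log2. The Cxcr3 ligand Cxcl10 fell by 3.49 ± 0.57 log2 in AhR-deficient and by 3.57 ± 0.54 log2 in wild-type monocytes, while Cxcl9 was not called. Among ligands of Ccr1, Ccl5 (-1.34 ± 0.40 and -1.64 ± 0.37 log2) and Ccl9 (-0.36 ± 0.08 and -0.55 ± 0.07 log2) fell in AhR-deficient and wild-type monocytes, and Ccl3 was not called. With the replicate block, Ccl3 was called lower in AhR-deficient monocytes (-0.47 log2, adjusted p = 0.0322), and Ccl4 was called higher in AhR-deficient (0.51 log2, adjusted p = 0.0162) and wild-type monocytes (0.37 log2, adjusted p = 0.0494). Ccl6 was called higher in AhR-deficient monocytes (0.34 ± 0.10 log2, adjusted p = 0.0235) and had 0.17 ± 0.09 log2 in wild-type monocytes (adjusted p = 0.172). Cxcl12, a ligand of Cxcr4, averaged under 1 CPM and was not called. Mif, a chemokine-like ligand of Cxcr4 counted among the 12, was not called either. With the replicate block it had -0.13 log2 in AhR-deficient (adjusted p = 0.225) and 0.17 log2 in wild-type monocytes (adjusted p = 0.0742). The Ccr7 ligands Ccl19 and Ccl21a had 0 counts in all 14 libraries. No ligand was called between the genotypes in either condition.

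**Figure D4:**
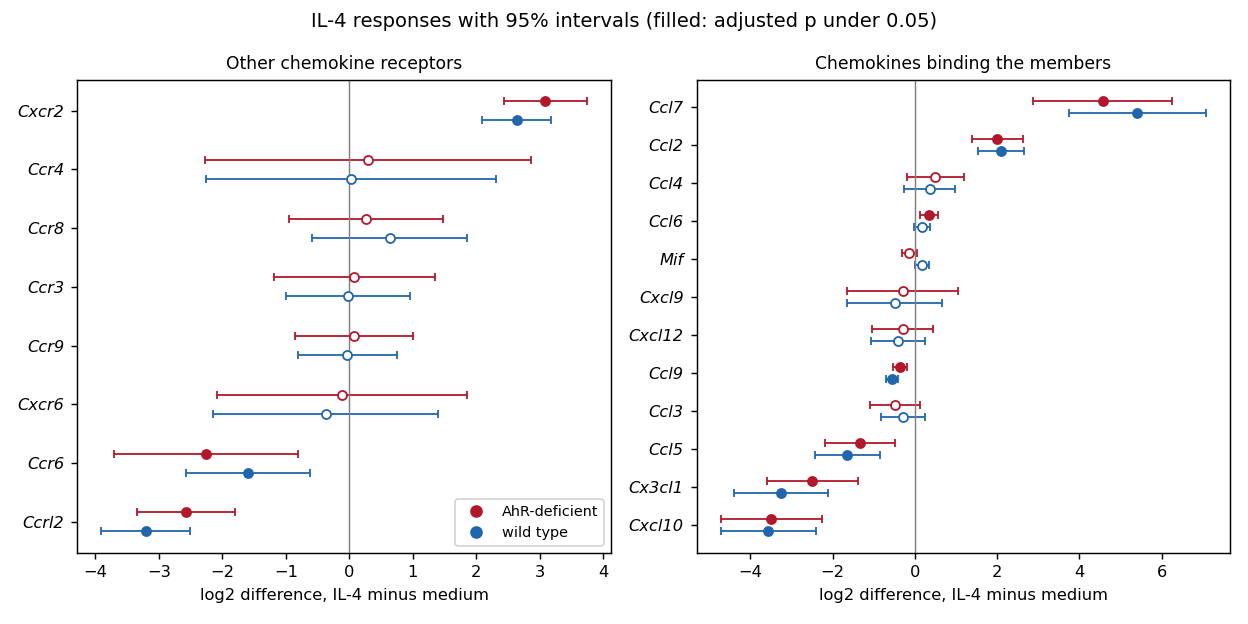
Fitted log2 differences between IL-4 and medium (horizontal axis) with 95% intervals for the 8 other chemokine receptors (left) and the 12 chemokines binding the 6 receptors (right) that passed the filter, in AhR-deficient and wild-type monocytes. Filled points passed an adjusted p of 0.05. The 12 include the chemokine-like Mif. Cxcr2, Ccl2 and Ccl7 lie to the right of 0 in both genotypes, and Ccrl2, Ccr6, Cxcl10, Cx3cl1, Ccl5 and Ccl9 to the left.

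Of 29 genes that carry or end the signal of chemokine receptors, 2 were higher, 8 lower and 19 not called in AhR-deficient monocytes in IL-4, and 3 were higher, 12 lower and 14 not called in wild-type monocytes. With the replicate block, 4 were higher and 11 lower in AhR-deficient monocytes, and 4 higher and 13 lower in wild-type monocytes. Their median log2 difference was -0.07 and -0.04, beside -0.01 and 0.01 over all genes. Both parts of the class IB PI3-kinase, which acts downstream of Gi-coupled receptors, fell. Its catalytic subunit Pik3cg fell by 1.06 ± 0.08 log2 in AhR-deficient and by 0.97 ± 0.07 log2 in wild-type monocytes, and its regulatory subunit Pik3r5 by 1.25 ± 0.19 and 1.19 ± 0.17 log2. The receptor kinase Grk5 (-0.69 ± 0.08 and -0.85 ± 0.07 log2), the arrestin Arrb2 (-0.67 ± 0.09 and -0.50 ± 0.08 log2) and the kinase Ptk2b (-0.33 ± 0.08 and -0.41 ± 0.07 log2) were lower in both genotypes. Rgs2, which shortens G protein signalling, was called in wild-type monocytes (-0.62 ± 0.12 log2) and not in AhR-deficient ones (-0.23 ± 0.14 log2), and the interaction was not called. Between genotypes, none of the 29 was called in IL-4. In medium Grk5 (-0.39 ± 0.07), Grk6 (-0.28 ± 0.08) and Rgs2 (-0.51 ± 0.13) were lower in AhR-deficient monocytes.

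Beside the fall of Cx3cr1, genes of non-classical monocytes were lower in IL-4 more often than higher. Of 12, 2 were higher, 5 lower and 5 not called in AhR-deficient monocytes, and 1 was higher, 7 lower and 4 not called in wild-type monocytes. With the replicate block, 2 were higher and 8 lower in AhR-deficient monocytes, and 2 higher and 9 lower in wild-type monocytes. Their median log2 difference was -0.55 and -0.63, beside -0.01 and 0.01 over all genes. Of all genes tested without the block, 14.2% were called lower and 15.4% higher in AhR-deficient monocytes. In wild-type monocytes these shares were 16.5% and 19.4%. The integrin Itgal fell by 1.05 ± 0.11 and 0.99 ± 0.09 log2, Treml4 by 2.29 ± 0.49 and 2.41 ± 0.43 log2, and Cd300e by 1.92 ± 0.51 and 2.32 ± 0.45 log2 in AhR-deficient and wild-type monocytes. Adgre4 and Spn were also lower in both genotypes, and the scavenger receptor Cd36 was higher (1.29 ± 0.30 and 1.15 ± 0.26 log2). The subset's transcription factor Nr4a1 had -0.52 ± 0.24 log2 in AhR-deficient monocytes (adjusted p = 0.133) and fell by 0.59 ± 0.21 log2 in wild-type monocytes (adjusted p = 0.0429). Of the 8 classical monocyte genes tested, 2 were higher, 3 lower and 3 not called in each genotype. With the replicate block 2 were higher and 4 lower in each, Fn1 being the one added (-0.20 and -0.18 log2, adjusted p = 0.0039 and 0.0031). Chil3 rose (1.60 ± 0.22 and 1.79 ± 0.19 log2), and Vcan (-1.15 ± 0.14 and -0.98 ± 0.12 log2) and Hp (-1.60 ± 0.22 and -1.0 ± 0.19 log2) fell.

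Genes whose pattern over the 14 libraries came closest to that of a receptor were ranked by the root mean square difference of centred log2 CPM among 9810 candidates of known symbol. They share libraries and the IL-4 difference with the receptor, so the ranking is a description. By this measure, which tends to be small for genes that change little, Cxcr4 had the closest neighbours, Tbl1x (0.0466 log2), Lrch1 (0.05) and Mapk3 (0.0634). By correlation over the 14 libraries the order differed, with r = 0.978 for Cxcr4 and Tbl1x and 0.985 for Cx3cr1 and Lpcat2. Cx3cr1 was nearest to Lpcat2 (0.152 log2), Gsap (0.168) and Nlrc4 (0.177), and Ccr1 to Ccpg1 (0.233), Ctdspl (0.242) and Aph1b (0.251). Ccr7 was nearest to Ccl22 (0.518 log2), Gpr84 (0.626) and Jag1 (0.673). No candidate came closer to Ccr2 than Lpar5 (0.558 log2), Fam78a (0.577) and Card10 (0.584), and Cxcr3 was nearest to F11r (0.459), Fam187b (0.569) and Arap3 (0.576). Cxcr3 had 0 to 20 counts per library, so its pattern is the least precisely measured of the 6.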

How the data were processed

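The deposited table holds raw counts per gene, 1 column for each of 14 libraries, per the file headers. The labels' protocols give 500 ng of RNA, a stranded mRNA kit and paired 100-nt reads, and the submitters' processing notes name FastQC, STAR and mm10. How reads were counted (program, annotation, strand, filters) is not given in the sources used here. Of 55487 identifiers, 55394 matched GENCODE M21 (GRCm38) without version.

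In R 4.3.3, edgeR 4.0.16 kept genes by filterByExpr, scaled by TMM and fitted 1 mean per group to all 14 libraries. Each contrast went through the quasi-likelihood F-test, with Benjamini-Hochberg adjustment over 14754 genes and calls at an adjusted p under 0.05. All adjusted p-values come from this test unless another is named. An SE is the log2 difference over the square root of F. The test was checked on simulated counts. Cxcr3 ratios carry exact binomial intervals for counting error at the 95% level. Replicates spread beyond sampling noise (chi-square per degree of freedom 13.8 to 60.0). Same-numbered libraries deviated together (r of 0.170 to 0.706 over 10575 genes, each best with its own number in 7 of 7 pairs), so the numbers were a block in an alternative for IL-4 and the interaction; genotype comparisons share no numbers.

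Alternatives were DESeq2 1.42.0, limma-voom (limma 3.58.1), other scalings and filters, the compared groups alone, and leaving out each library. Leaving out numbers 1 and 2, or number 7, was added after seeing the data. The 6 members and all lists were chosen with earlier results of these data known. Genes of other lists were named by the smallest adjusted p in either IL-4 response, up to 6 a list; further genes were named to complete a count. A few genes of these lists are not reported here and were left out of the counts and sums. B cell, plasmacytoid dendritic cell and erythroid markers, each summing to at most 37.3 CPM, had no call in any comparison; with the block, Siglech and Cd300c in AhR-deficient and Hba-a1 in wild-type monocytes were called for IL-4.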

Additional observations from a re-analysis of the deposited data

Results flagged for a closer look

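Wild-type library 7 in IL-4 had 89.0 CPM of Ccr1, far above the 54.5 to 57.7 CPM of the other 3 libraries of its group. Its distance from the nearest of them took up 0.907 of the group's range, over the 95% limit of Dixon's test for 4 samples. Of the 12 combinations of a receptor and a wild-type group examined, 1 was marked, where chance marks about 1 in 20. Number 7 in medium, with Ccr2 at 478 CPM and Ccr7 at 7.42 CPM, lay at gaps of 0.756 and 0.764 of its group's range, under that limit. In Dock2, which is not among the 12, wild-type library 1 in medium (81.0 CPM) lay at a gap of 0.854, over the limit.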

How the results depend on the processing

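The number of receptors called for IL-4 stayed at 4 to 5 of 6 in each genotype when each library was left out, and at 3 to 5 under the other alternatives; with the replicate block it was 4 in AhR-deficient and 5 in wild-type monocytes, and Ccr1 in wild type was the only receptor of the 6 whose call the block changed. For the genotype difference in IL-4 (2 called) it was 1 with a minimum of 1 CPM in 3 libraries, where Cxcr3 could not be tested, 0 with numbers 1 and 2 left out, and 0 to 3 when each library was left out. For the genotype difference in medium (1 called) it was 2 by DESeq2, 2 by limma-voom and 2 without the filter, 0 on the compared groups alone, 0 with numbers 1 and 2 left out, 3 with number 7 left out, and 0 to 2 when each library was left out. The interaction called 0 receptors under each alternative, the replicate block included. The calls of all genes for the genotype difference in IL-4 (239) were 802 by DESeq2, 361 without the filter, 523 on the compared groups alone and 25 with numbers 1 and 2 left out; in medium (1197) they were 1990 by DESeq2, 59 on the compared groups alone and 30 with numbers 1 and 2 left out. Of 693 values of single receptors under alternatives, 636 kept direction and side of the threshold, 18 lost a call, 21 gained one and 18 changed sign.

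None of the sign changes concerned a called difference. With numbers 1 and 2 left out these were the wild-type IL-4 response of Ccr1 (0.0134 log2), the genotype difference of Cx3cr1 in medium (-0.104) and the interaction of Ccr1 (-0.202). The genotype difference of Cxcr4 in IL-4 was -0.0051 without AhR-deficient library 6 in IL-4 (-0.0051 to 0.0769 when each library was left out), and that of Cx3cr1 in medium -0.000317 without wild-type library 1 in medium (-0.000317 to 0.232). The interaction of Ccr2 was 0.0069 with DESeq2 size factors, 0.0069 by DESeq2, 0.0226 without the filter, 0.0117 with the 1 CPM minimum, 0.316 with number 7 left out, and -0.185 to 0.265 when each library was left out. The interaction of Cx3cr1 was -0.0453 with number 7 left out and -0.0315 without wild-type library 3 in medium (-0.0315 to 0.201). The cause of these changes was not tested. Cxcr3, with 0 to 20 counts a library, had no value on the compared groups alone in AhR-deficient monocytes or between genotypes in IL-4, and no adjusted p by DESeq2 between genotypes in IL-4.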
